A study of Homo sapiens with 12 samples.

Results

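The genes described here encode the proteins of the cytosolic ribosome. They were chosen by symbol: RPL or RPS followed by a number and, where present, one of the endings A, L, L1 or X, together with RPLP0, RPLP1, RPLP2 and RPSA. Of 58721 genes in the count table, 84 met this rule, 52 of the large (60S) subunit and 32 of the small (40S) subunit. Pseudogenes were left out, and FAU and RACK1, whose products also sit in the ribosome, carry other symbols and were counted with the translation genes below. The libraries came from 2 Ewing sarcoma cell lines, EW8 and TC71, each grown for 72 h with doxycycline at 2000 ng/ml or with DMSO as vehicle, 3 libraries in each of 4 groups. Cells of all 4 groups carried the lentiviral Tet-On 3G system, its activator driven by the EF1 alpha promoter, and a doxycycline-dependent cassette for c-Jun and c-Fos, the subunits of the transcription factor AP-1. The labels give the genotype of the vehicle cells as WT and that of the doxycycline cells as AP1_overexpression. No doxycycline-treated cells without the cassette were used here, so the drug itself and the induced proteins cannot be told apart. Nothing in the labels says whether the replicates were separate cultures, and p-values therefore measure the spread between these libraries, which may be technical.

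A ribosome holds one copy of nearly every ribosomal protein, and cells keep the supply of these proteins close to balanced. In vertebrates most of their mRNAs start with a C followed by a run of pyrimidines, the 5′ terminal oligopyrimidine (TOP) sequence, through which the growth pathway of the kinase mTOR adjusts their translation as a group. Some large-subunit proteins lie near the exit tunnel, and some small-subunit proteins lie along the path of the mRNA. The acidic P proteins form a stalk that recruits elongation factors. A few genes have expressed copies on other chromosomes, such as RPL39L or RPS27L, which are often tissue-restricted or stress-responsive.

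The start-site sequences below show a feature that most of the family shares, and some copies that lack it. Promoter sequence from RefSeq (build GRCh38.p14, 250 bases before to 50 bases after each annotated start) was matched by symbol for 67 of the 84 members. At least 1 annotated start was a C followed by at least 4 pyrimidines in 47 of these 67 genes (70.1%), against 5.14% of the 27305 genes with such sequence. The run of pyrimidines, the first C included, was 5 to 19 bases long in these genes, with a median of 8. The other 20 had no such start. They include members that are not copies, such as RPL6 and RPL17, whose sequences are not printed. Each line gives 10 bases before the start and 20 from it, 5′ to 3′ on the strand of the gene, and the capitals mark the pyrimidine run from the start base. RPL13A and RPS3 were among the lowest members in TC71, RPL22 was low in EW8, and RPLP0, RPLP1, RPSA, RPL27A and RPL37A lay above the family median in TC71.
RPL13A: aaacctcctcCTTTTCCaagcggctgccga
RPS3: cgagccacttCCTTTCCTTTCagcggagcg
RPL22: cgctcacctcCCTTTCTaactccgctgccg
RPLP0: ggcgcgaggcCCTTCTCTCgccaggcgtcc
RPLP1: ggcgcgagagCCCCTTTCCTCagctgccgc
RPSA: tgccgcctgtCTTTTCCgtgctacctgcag
RPL27A: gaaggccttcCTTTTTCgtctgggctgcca
RPL37A: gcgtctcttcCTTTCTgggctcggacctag
Among the copies with matched sequence, RPL22L1 has such a start, while RPS27L, RPL26L1, RPL10L and RPL7L1 (sequence not printed) do not.
RPL22L1: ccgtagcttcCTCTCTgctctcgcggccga
RPS27L: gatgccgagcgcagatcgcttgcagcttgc
RPL26L1: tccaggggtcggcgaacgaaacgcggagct
RPL10L: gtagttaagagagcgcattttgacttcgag
The windows lie at chr19:49487598-49487627 (+, RPL13A), chr11:75399508-75399537 (+, RPS3), chr1:6199576-6199605 (-, RPL22), chr12:120201092-120201121 (-, RPLP0), chr15:69452808-69452837 (+, RPLP1), chr3:39406710-39406739 (+, RPSA), chr11:8682782-8682811 (+, RPL27A), chr2:216498834-216498863 (+, RPL37A), chr3:170870176-170870205 (-, RPL22L1), chr15:63157458-63157487 (-, RPS27L), chr5:172958719-172958748 (+, RPL26L1) and chr14:46651762-46651791 (-, RPL10L). Over the 300-base promoters, read on both strands, the AP-1 motif TGANTCA was found in 2 of the 67 genes, RPL6 and RPL24 (2.99%), against 9.37% of all genes. The ETS-type motif CCGGAAG was found in 24 (35.8%, against 12.2%), TATAAA in 7 (10.4%, against 14%) and the E-box CACGTG in 5 (7.46%, against 8.77%).

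Library totals ran from 42860665 to 60853649 counts, with each mate of a read pair counted on its own. Levels are given as CPM, counts per 1e+06 counts of a library after TMM scaling (edgeR's trimmed mean of M-values). The induced genes were checked first. JUN lay at 18.04 to 25.35 CPM in the 6 vehicle libraries and at 422.2 to 813.5 in the 6 doxycycline libraries, with log2 fold changes of 4.46 (EW8) and 5.19 (TC71). FOS lay at 11.21 to 37.57 and 998.7 to 1686.0 CPM, with log2 fold changes of 4.87 and 7.08. All 10 Ewing sarcoma markers averaged at least 1 CPM in each group. Of 8 leukocyte markers, 2 did so in each EW8 group and none in TC71, of 10 fibroblast markers 6 in each EW8 group and 8 in each TC71 group, and of 8 epithelial markers 2 with vehicle in both lines and 3 and 4 with doxycycline in EW8 and TC71. TC71 vehicle replicate 1 stood apart from its group. Its chi-square per gene against replicates 2 and 3 was 62 and 59.4, whereas the other replicate pairs gave 5.32 to 10.6. Mitochondrially encoded genes held 2.66% of its counts, against 1.14% and 1.185% in its 2 sister libraries. Since it was also the lowest vehicle library of TC71 for 70 of the 83 tested members, the TC71 counts and medians of the whole family are given with and without it, and so are single members where it changed a call or moved a value by over 1.5 times. Values for smaller gene lists include it.

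The members took a smaller share of all counts with doxycycline in both lines, and the drop was larger in TC71. In EW8 they held 5.177%, 5.431% and 5.216% of the counts with vehicle and 4.631%, 4.711% and 4.659% with doxycycline. In TC71 the vehicle libraries held 6.058%, 6.946% and 6.967%, and the doxycycline libraries 4.895%, 4.918% and 4.809%. Within each line the 2 groups did not overlap, and the doxycycline groups of the 2 lines lay closer to each other than the vehicle groups did. The group means were 5.275% ± 0.1364 and 4.667% ± 0.04068 in EW8 and 6.657% ± 0.5192 and 4.874% ± 0.0574 in TC71 (SD, n = 3). With 3 libraries a group an exact permutation test of such a share could not go below 0.10, and none was run. After TMM scaling, the median member of the doxycycline libraries lay at -0.13 to -0.10 relative to the vehicle mean in EW8 and at -0.42 to -0.34 in TC71 (log2 CPM). TC71 vehicle replicate 1 itself lay at -0.14. A lower share of counts can come from fewer ribosomal protein transcripts per cell or from more RNA of other genes, and counts of bulk RNA do not tell these apart.

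**Figure D1:**
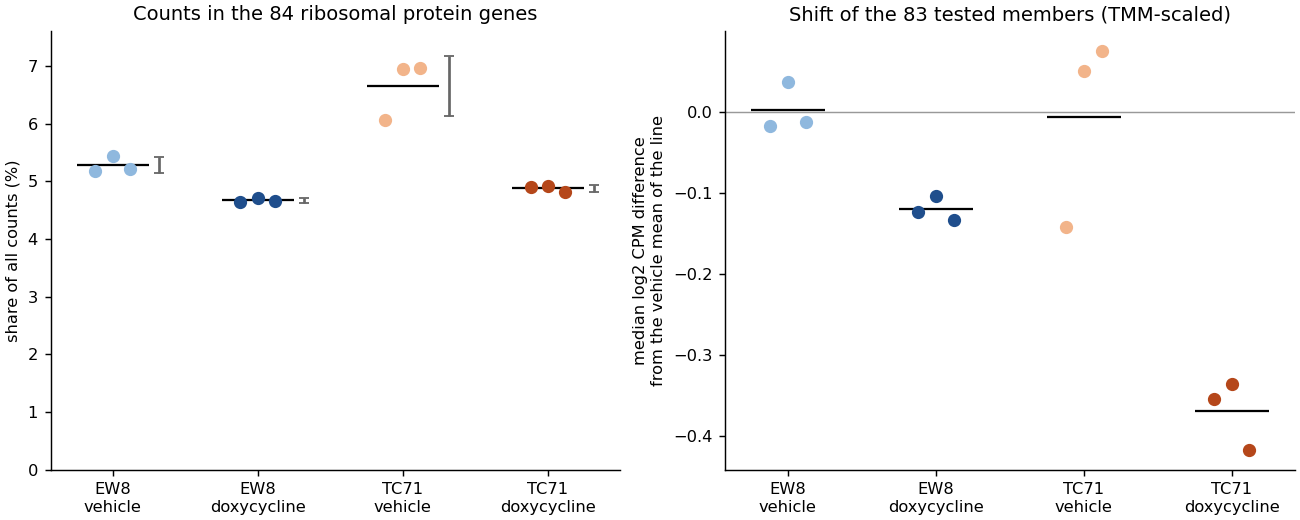
Left, percentage of all counts that fell in the 84 ribosomal protein genes in each library (points), with the group mean (line) and SD (grey bar, n = 3). Right, median over the 83 tested members of the log2 CPM difference from the vehicle mean of the same line, with the group mean as a line. The TC71 vehicle point at 6.058% and -0.14 is replicate 1, which stands apart from its 2 sister libraries.

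In EW8 the ribosomal protein genes were lower with doxycycline by a small and uneven amount. Of the 83 members tested by edgeR's quasi-likelihood test with Benjamini-Hochberg adjustment over 21013 genes, 32 were lower and 2 were higher at an adjusted p under 0.05, where 22.0% of all genes were lower and 21.9% higher. No member passed the threshold with a change over 2-fold (background 3.38% lower and 11.4% higher). The median log2 fold change of the members was -0.12, a fold of 0.918, beside -0.03 over all genes tested, and their range was -0.43 to 0.27. This median kept its sign under every alternative, but its size and the number of calls depended on the scaling. When TMM was computed without the members, 15 members were lower and 4 higher, beside 3949 and 4881 of all 21013 genes. Members were then called lower no more often than all genes. With libraries set to an equal median of all genes, 70 were lower and 0 higher, beside 7107 and 3562 of all genes. That setting moved the median of all genes to -0.22. Leaving out EW8 doxycycline replicate 1 or 2 left 6 lower members each time, leaving out EW8 doxycycline replicate 3 left 14, EW8 vehicle replicate 2 left 21, EW8 vehicle replicate 3 left 10 and TC71 vehicle replicate 3 left 19. Over all genes, in the same order, 3341 of 21864, 3281 of 21845, 3552 of 22072, 4091 of 22138, 3418 of 21889 and 4093 of 21949 were lower. Members were called lower less often than all genes without EW8 doxycycline replicate 1 or 2 or EW8 vehicle replicate 3.

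The lowest called member in EW8 was RPL22, a protein near the exit tunnel that also binds RNA outside the ribosome. Its CPM was 213.1, 196.7 and 219.5 with vehicle and 166.4, 155.2 and 161.0 with doxycycline, with a gap between the groups, and its log2 fold change was -0.38 ± 0.06 (SE, adjusted p = 3.57e-05). RPS3A and RPS15A, both of the small subunit, followed at -0.31 ± 0.08 (adjusted p = 0.0026) and -0.30 ± 0.06 (adjusted p = 0.000579). RPL5, which binds the 5S RNA, and RPS23, a protein of the decoding centre, were at -0.27 ± 0.06 (adjusted p = 0.00164) and -0.27 ± 0.07 (adjusted p = 0.00226). These 5 members stayed below 0 and called under all 15 alternatives of method and scaling. For single members 1 of the 15, without the 4 low-count members, repeats the main fit and could not differ. Dropping single libraries ended the call for RPS3A, RPL5 and RPS23 in 2 or 3 of 12 cases each. RPL3L, the muscle copy of RPL3, had a lower estimate (-0.43 ± 0.68, adjusted p = 0.654), which rested on 9 to 49 counts a library and turned to 0.24 without EW8 vehicle replicate 3.

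The 2 called higher members in EW8 were both stalk proteins. RPLP1 had 801.5, 945.8 and 816.5 CPM with vehicle and 1048.0, 1065.0 and 961.1 with doxycycline, so that every doxycycline library was above every vehicle library. Its log2 fold change was 0.26 ± 0.07 (adjusted p = 0.0067), and it missed the threshold in 1 of 15 alternatives, at 0.07 with an equal median of all genes. RPLP0 had 1816.0, 1946.0 and 1814.0 CPM with vehicle and 2067.0, 2143.0 and 2072.0 with doxycycline, also without overlap. Its log2 fold change was 0.17 ± 0.07 (adjusted p = 0.0401), a call lost in 5 of 12 fits that left out 1 library and under 5 of 15 other alternatives, among them DESeq2 (adjusted p = 0.0519) and an equal median of all genes, where the estimate turned to -0.02. RPL22L1, RPL39L and RPS27L, 3 of the copies, were at 0.27 ± 0.12, 0.25 ± 0.10 and 0.14 ± 0.10 and did not pass the threshold (adjusted p = 0.0793, 0.0553 and 0.282), and with an equal median of all genes RPS27L was at -0.06.

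In TC71 nearly the whole family was lower. Of the 83 tested members, 71 were lower and 2 higher, against 20.4% and 25.1% of all genes, and none of these changes exceeded 2-fold (background 3.67% lower and 12.3% higher). The median log2 fold change was -0.38, a fold of 0.768, beside 0.00 over all genes. Without TC71 vehicle replicate 1 the median was -0.53, with 74 members lower and 1 higher, beside 5245 and 4850 of all 21905 genes. Over all alternatives the median lay between -0.66 and -0.34 and the number of lower members between 69 and 77. The most negative value came from an equal median of all genes, which moved the median of all genes to -0.26. Upper-quartile scaling moved that median to -0.10. Both settings gave 77 lower members, beside 7438 and 5645 of all 21013 genes. With each line fitted alone the 69 lower members stood beside 3779 of 18261 genes.

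The strongest called decreases in TC71 were those of 2 large-subunit genes. RPL13A, a protein also known for holding interferon-responsive mRNAs silent, had 1641.0, 2211.0 and 2195.0 CPM with vehicle and 1313.0, 1324.0 and 1229.0 with doxycycline. The groups did not overlap, although vehicle replicate 1 lay nearer to the doxycycline libraries than to its sister libraries, and the log2 fold change was -0.65 ± 0.08 (adjusted p = 2.8e-06), or -0.85 without that replicate. RPL23A, a tunnel-exit protein, had 284.4, 317.0 and 320.8 CPM with vehicle and 198.7, 211.9 and 180.5 with doxycycline, a log2 fold change of -0.64 ± 0.07 (adjusted p = 2.59e-07), or -0.78 without vehicle replicate 1. With the counts of its pseudogenes added it was at -0.12 and no longer called (adjusted p = 0.139). RPS3, of the small subunit, was at -0.51 ± 0.07 (adjusted p = 5.06e-06). RPL3L was again lowest by estimate at -0.99 ± 0.75 (adjusted p = 0.31), with 2 to 24 counts a TC71 library.

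At the other end in TC71 stood 2 copies that rose. RPS27L, a copy of RPS27 and a known target of the tumour suppressor p53, had 22.76, 19.16 and 19.1 CPM with vehicle and 38.37, 38.69 and 37.08 with doxycycline. Its doxycycline libraries were all above its vehicle libraries by a wide margin, and its log2 fold change was 0.90 ± 0.10 (a fold of 1.871, adjusted p = 3.1e-07), or 0.91 without vehicle replicate 1. RPL39L, the copy of RPL39 best known from testis, had 10.35, 10.31 and 13.08 CPM with vehicle and 14.08, 14.91 and 14.61 with doxycycline. It rose by 0.37 ± 0.11 on the log2 scale (adjusted p = 0.00706), a call that was lost without vehicle replicate 1 (0.24, adjusted p = 0.0834), under upper-quartile scaling (0.25, adjusted p = 0.0552) and with an equal median of all genes (0.10, adjusted p = 0.482). RPL26L1 was at 0.16 ± 0.07 (adjusted p = 0.0751) and turned to -0.12 with an equal median of all genes. RPLP0 came next among the well-counted members at -0.10 ± 0.07 (adjusted p = 0.215), and without vehicle replicate 1 it passed as lower (-0.28, adjusted p = 1.18e-06).

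**Figure D2:**
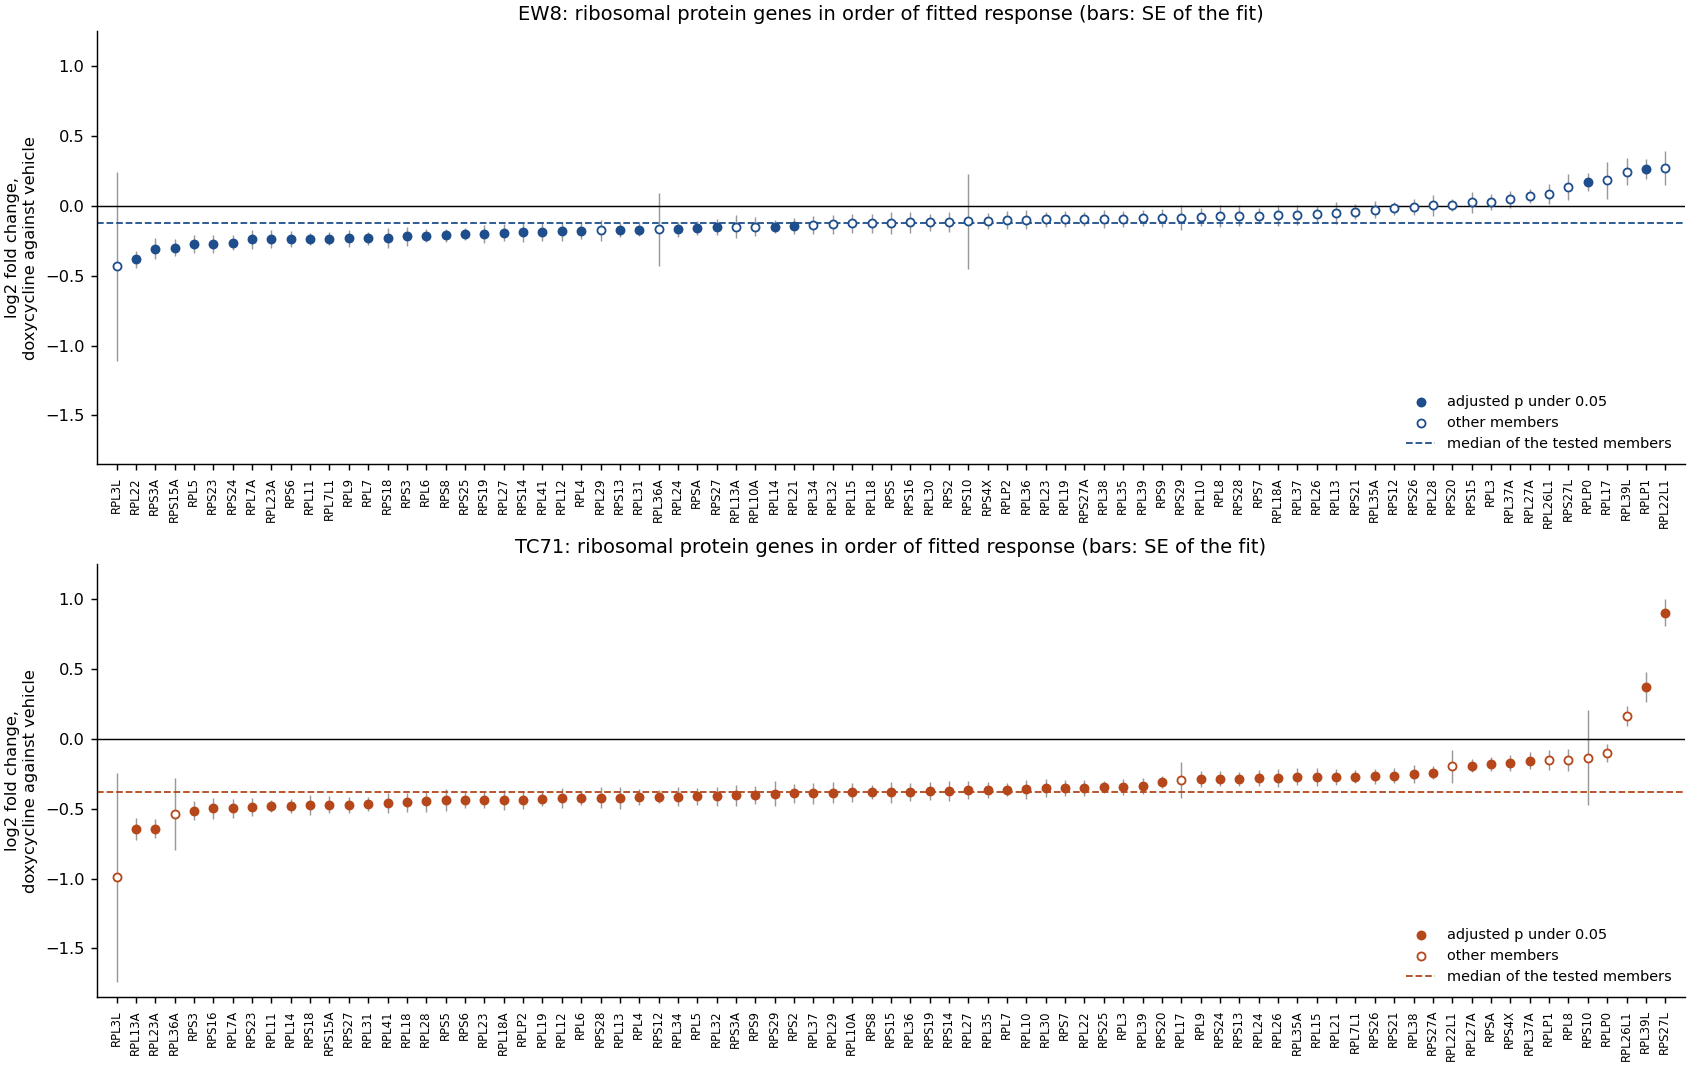
Fitted log2 fold change with doxycycline of 81 of the 83 tested ribosomal protein genes, in rising order, for EW8 (top) and TC71 (bottom). Points are estimates, bars are standard errors, filled points passed an adjusted p of 0.05, and the dashed line is the median of all 83 (-0.12 and -0.38). In TC71 only RPS27L and RPL39L are filled above 0.

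The spread of the response among members was compared with its size. The 7 copies (RPL3L, RPL7L1, RPL10L, RPL22L1, RPL26L1, RPL39L and RPS27L) and 4 low-count genes were set aside for this, which left 73 members. In TC71 all 73 had estimates below 0, from -0.65 to -0.10, and 70 of them were called lower (background 20.4%). Their SD was 0.107, set against a root-mean-square SE of 0.063, and 65 of the 73 lay within 0.2 of their median of -0.38. In EW8 the same 73 genes had an SD of 0.106 with the same root-mean-square SE, and 70 of them lay within 0.2 of their median of -0.13. The spread was near equal in both lines, so that it was close to the size of the median shift in EW8 and well below it in TC71. Over all 83 tested members the SD was 0.133 in EW8 and 0.217 in TC71. The subunits had like medians. In EW8 the 40S median was -0.12 with 15 of 32 lower and the 60S median -0.12 with 17 of 51 lower. In TC71 both medians were -0.38, with 29 of 32 and 42 of 51 lower. Over all genes 22.0% were lower in EW8 and 20.4% in TC71. Counting libraries instead of fitted values, the doxycycline group lay wholly below the vehicle group for 49 members and wholly above it for 7 in EW8 (background 29.1% and 26.9%), and for 69 and 3 in TC71 (background 23.1% and 27.6%).

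Members that departed from the shared shift were sought by scaling the libraries to an equal median of the member genes, a measure added after the data were seen. In EW8 4 members were then lower than the rest (background of all genes on this scale, 13.5%) and 7 higher (24.8%). The 4 were RPL22 (-0.27 ± 0.07), RPS3A, RPS15A and RPL5, and the 7 were RPL3, RPL37A, RPL27A, RPLP0, RPL39L, RPLP1 and RPL22L1, from 0.14 to 0.39. In TC71 5 were lower (5.97%) and 10 higher (40.9%). Taken over the 83 tested members, the lower share in TC71 was near that of all genes, and the other shares were below it. Among the 5 were RPL23A (-0.28 ± 0.06, pseudogene counts left out), RPL13A (-0.27 ± 0.06), RPS3 and RPL7A, and the 10 were RPL27A, RPSA, RPS4X, RPL37A, RPL8, RPLP1, RPLP0, RPL26L1, RPL39L and RPS27L, from 0.17 to 1.26. RPLP0, RPLP1, RPL27A, RPL37A and RPL39L stood above the family in both lines, at 0.29 and 0.26 for RPLP0 and 0.38 and 0.21 for RPLP1. For the difference between the lines on this scale, 1 member was lower, RPL13A (-0.24 ± 0.09), and 3 were higher, RPSA, RPL22 (0.28 ± 0.09) and RPS27L (1.01 ± 0.17), against 3.65% and 24.1% of all genes. The remaining 72 members in EW8 and 68 in TC71 were not distinguished from the family median at this depth within a line.

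The 2 lines differed in the size of the response. All 32 members lower in EW8 were also lower in TC71, where 13.5% of all genes were lower in both, and 39 further members were lower in TC71 without being called in EW8. Tested directly, as the TC71 response minus the EW8 response, 37 members had a lower response in TC71 and 1, RPS27L, a higher one (background 7.07% and 12.2%). No difference exceeded 2-fold (background 2.87% lower and 4.18% higher). The median difference was -0.25. Without TC71 vehicle replicate 1 it was -0.44 with 74 members lower, beside 3095 of all 21905 genes. The count of members was 18 without EW8 vehicle replicate 1, 22 without TC71 vehicle replicate 2, and 23 and 19 without TC71 doxycycline replicates 1 and 3. Over all genes, in the same order, 1202 of 22183, 1333 of 21956, 1229 of 22175 and 1247 of 22160 had a lower response. RPL13A had the largest called negative difference, -0.50 ± 0.12 (adjusted p = 0.00461, or -0.75 without TC71 vehicle replicate 1), followed by RPL28 at -0.45 ± 0.11 (adjusted p = 0.00593). RPL28, a large-subunit protein, hardly differed between the EW8 groups (355.2 ± 36.1 CPM with vehicle and 355.8 ± 2.78 with doxycycline, SD, n = 3) and dropped from 582.9 ± 41.4 to 427.9 ± 42.9 CPM in TC71. RPL3, also of the large subunit, was at 0.03 ± 0.06 in EW8 and -0.34 ± 0.06 in TC71, a difference of -0.37 ± 0.08 (adjusted p = 0.00393), or -0.57 without TC71 vehicle replicate 1. No difference was called for RPL22, at 0.03 ± 0.08 (adjusted p = 0.859), or for RPSA, at -0.02 ± 0.07 (adjusted p = 0.922). Across members the responses in the 2 lines, which share no library, had a Pearson's r of 0.62 and a Spearman's rho of 0.53 (83 genes), or 0.5 and 0.43 for the 73 genes above; genes are not independent replicates and no p is given.

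**Figure D3:**
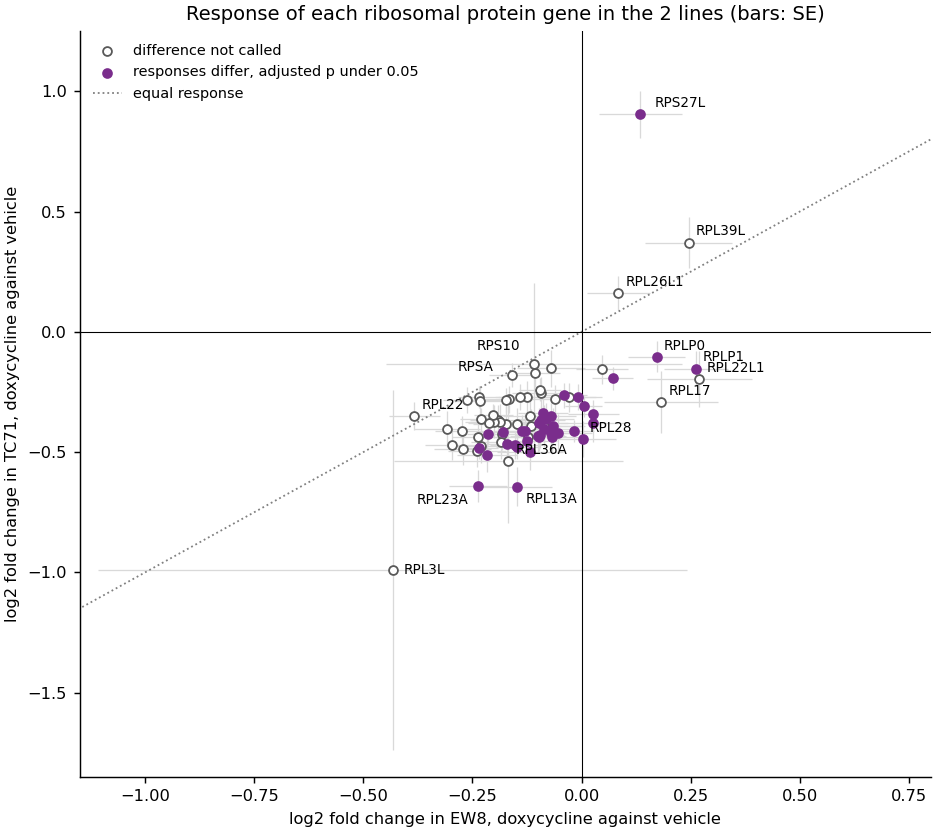
Log2 fold change of the same 81 ribosomal protein genes in EW8 (x axis) and TC71 (y axis), with standard errors as bars. Filled points are the 37 plotted members whose responses differed between the lines at an adjusted p under 0.05, and the dotted line marks equal responses. Most points lie below that line, and RPS27L lies above it.

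Within the family, the stalk genes and the genes with extraribosomal roles were read separately. RPLP0, RPLP1, RPLP2 and RPL12 make up the stalk and its base. Unlike RPLP0 and RPLP1, RPL12 was lower in EW8 (-0.183 ± 0.069, adjusted p = 0.0382). It was also lower in TC71 (-0.423 ± 0.069, adjusted p = 5.14e-05). RPLP2, the partner of RPLP1, did not rise with it in EW8 (243.4 ± 20.2 CPM with vehicle, 227.0 ± 5.16 with doxycycline, SD, n = 3, log2 fold change -0.10 ± 0.06, adjusted p = 0.228). In TC71 RPLP2 fell by 0.44 on the log2 scale (SE 0.06, adjusted p = 1.64e-05), whereas RPLP1 was at -0.15 ± 0.07 (adjusted p = 0.0981) and at -0.31 (adjusted p = 5.25e-05) without vehicle replicate 1. RPLP1 was called lower in TC71 under 8 of 15 alternatives and in 5 of 12 fits that left out 1 library. The difference between the lines was called for all 3 P proteins, at -0.28 ± 0.09 for RPLP0 (adjusted p = 0.0434), -0.42 ± 0.10 for RPLP1 (adjusted p = 0.00765) and -0.34 ± 0.09 for RPLP2 (adjusted p = 0.0131). Without TC71 vehicle replicate 1 these were -0.50, -0.62 and -0.52. RPL5 and RPL11, which with the 5S RNA can bind the p53 regulator MDM2 when ribosome assembly is disturbed, were lower in both lines. RPL11 had 885.3, 909.1 and 909.3 CPM in EW8 with vehicle and 776.9, 761.6 and 756.8 with doxycycline, and 862.3, 884.3 and 894.3 against 654.9, 624.9 and 609.8 in TC71. Neither pair of groups overlapped, and its log2 fold changes were -0.24 ± 0.04 (adjusted p = 0.000235) and -0.48 ± 0.04 (adjusted p = 4.22e-08).

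RPS6, the small-subunit protein phosphorylated downstream of mTOR, was lower in both lines, at -0.24 ± 0.06 in EW8 (adjusted p = 0.00331) and -0.44 ± 0.06 in TC71 (adjusted p = 7.25e-06). RPSA, a small-subunit protein also known as a laminin receptor, had 938.1 ± 33.8 CPM with vehicle and 839.6 ± 4.36 with doxycycline in EW8 (SD, n = 3). Its TC71 levels were 2129.0 ± 152.0 and 1881.0 ± 44.3, and its log2 fold changes were -0.16 ± 0.05 (adjusted p = 0.0158) and -0.18 ± 0.05 (adjusted p = 0.00744). In EW8 the call for RPSA was lost in 6 of 12 fits that left out 1 library and under 3 of 15 other alternatives, and in TC71 its value was -0.32 without vehicle replicate 1. Among 22 members linked to Diamond-Blackfan anaemia, an inherited failure of red cell production, 9 were lower in EW8 and 19 in TC71 with medians of -0.12 and -0.36, where 22.0% and 20.4% of all genes were lower in the 2 lines. Of 10 members near the exit tunnel 4 and 9 were lower (medians -0.13 and -0.37), and of 13 along the mRNA path 6 and 12 (medians -0.12 and -0.37), close to the -0.12 and -0.38 of the whole family.

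Members were also read by their start sequence, with no test. In the 47 genes with a TOP-form start the median log2 fold change was -0.14 in EW8 and -0.38 in TC71. In the 19 tested genes without one, it was -0.10 and -0.35. The spread in TC71 was wider in the latter (SD 0.311, against 0.121), and RPS27L, at 0.90, is one of them. The 28 members that hold at least 1 of 59 small nucleolar RNA genes, hosted mostly in their introns, had medians of -0.12 and -0.41, and the other members -0.12 and -0.37.

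Copies were set beside their parent genes, with no test between them. Of the 7 parents (RPL3, RPL7, RPL10, RPL22, RPL26, RPL39 and RPS27), 3 were lower in EW8 and 7 in TC71. Of the 6 copies tested 1, RPL7L1, was lower in both lines. Over all genes 22.0% were lower in EW8 and 20.4% in TC71. Of the copies 0 were higher in EW8 and 2, RPS27L and RPL39L, in TC71, where 21.9% and 25.1% of all genes were higher. RPL7L1, a protein of ribosome assembly rather than a ribosomal subunit, had 476.0 ± 2.57 CPM with vehicle and 404.5 ± 8.3 with doxycycline in EW8 and 440.2 ± 11.3 and 364.7 ± 15.4 in TC71 (SD, n = 3). Its log2 fold changes were -0.24 ± 0.05 (adjusted p = 0.000468) and -0.27 ± 0.05 (adjusted p = 0.000104). In TC71 RPS27 fell from 566.9 ± 47.5 to 408.8 ± 12 CPM (-0.47 ± 0.06, adjusted p = 1.35e-06) while RPS27L rose, and RPL39 fell from 475.6 ± 39.6 to 376.2 ± 11.8 CPM (-0.34 ± 0.06, adjusted p = 8.41e-05) while RPL39L rose. Per kilobase of annotated exon, RPS27L nevertheless stayed far below RPS27, at a mean of 4.169 against 394.9 CPM per kb in TC71 with doxycycline. RPL39L was at 13.71 against 175.7. Annotated exon is 9127 bp for RPS27L and 1035 bp for RPS27, which widens that gap. In the undivided CPM given above RPS27L was also below RPS27, by a smaller factor.

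RPL26 and RPL26L1 were the pair with the closest levels per exon length, which is 2513 bp for RPL26 and 1164 bp for RPL26L1. Pseudogenes held 42.46% of the counts of RPL26 and its 17 pseudogenes together, and RPL26L1 has none annotated. In EW8 the parent was at 28.49 and the copy at 24.84 CPM per kb with vehicle, and at 27.32 and 26.33 with doxycycline. In TC71 the copy was the higher of the pair on this scale, at 33.56 against 18.4 with vehicle and 37.53 against 15.15 with doxycycline, whereas in CPM not divided by length RPL26 was higher with vehicle (46.24 against 39.06). The TC71 libraries of RPL26 held 45.71, 46.69 and 46.33 CPM with vehicle and 38.13, 37.81 and 38.31 with doxycycline, and its log2 fold change was -0.28 ± 0.06 (adjusted p = 0.000931), against -0.06 ± 0.06 in EW8 (adjusted p = 0.457). RPL22L1, whose splicing and level are known to be controlled by RPL22, was at 12.52, 10.72 and 12.21 CPM with vehicle and 13.73, 14.11 and 14.94 with doxycycline in EW8, where RPL22 fell. Its groups did not overlap, yet its change missed the threshold as given above, and it passed under 5 of 15 alternatives. In TC71, RPL22L1 was at -0.20 ± 0.12 (adjusted p = 0.195). RPL10L, an RPL10 copy of the male germ line, had 0 to 22 counts a library and was the member that did not pass the low-count filter.

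**Figure D4:**
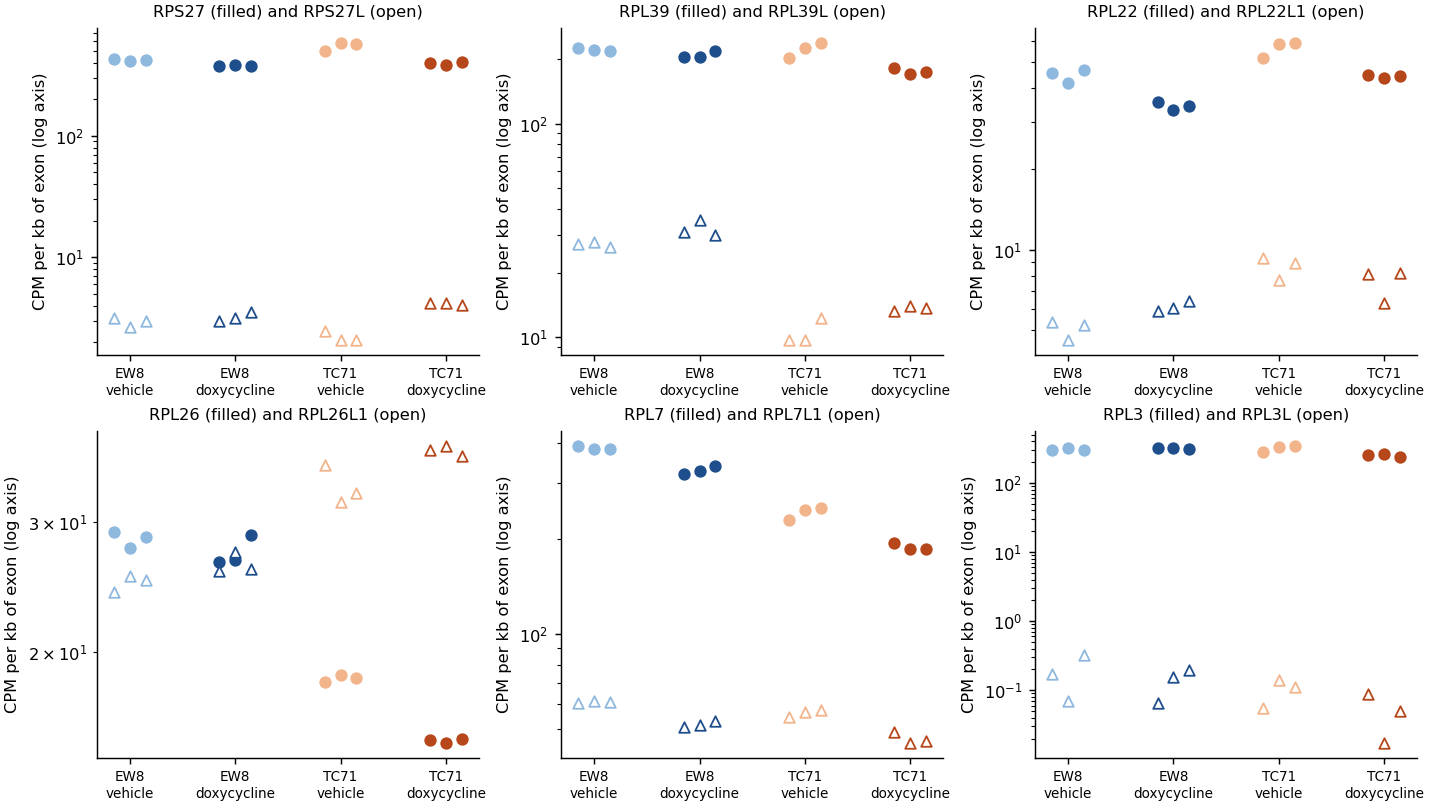
Level in CPM per kilobase of annotated exon (log axis) of each library for 6 parent genes (filled circles) and their copies (open triangles), by group. RPS27L and RPL39L are higher with doxycycline in TC71 while RPS27 and RPL39 are lower, and RPL26L1 lies above RPL26 in TC71 on this scale, though not in CPM with vehicle (39.06 against 46.24).

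The family also differed between the lines under vehicle. With vehicle, 52 members were higher and 19 lower in TC71 than in EW8 (background 28.2% and 33.5%). Over 2-fold there were 8 and 2 (background 11.6% and 18.9%). The median log2 difference, TC71 minus EW8, was 0.37, and members ranged from -1.36 to 1.18 with an SD of 0.563. This spread was wider than that of either response to doxycycline, at 0.133 and 0.217. Without TC71 vehicle replicate 1 the counts were 59 and 13 and the median 0.50. Over all genes that fit gave 6781 higher and 6517 lower of 21905. RPSA was furthest above EW8, with 911.2, 976.0 and 927.0 CPM in EW8 and 1956.0, 2191.0 and 2239.0 in TC71 (1.18 ± 0.05, adjusted p = 7.46e-13). RPS27A, a fusion of a ribosomal protein with ubiquitin, was at 1.18 ± 0.05 (adjusted p = 4.03e-13), RPL13A at 1.14 ± 0.08 (adjusted p = 8.3e-10) and RPL14 at 1.10 ± 0.05 (adjusted p = 1.07e-12). On the other side, RPL39L was at 28.94, 29.55 and 28.13 CPM in EW8 and 10.35, 10.31 and 13.08 in TC71 (-1.36 ± 0.10, adjusted p = 1.84e-09). RPS16, a small-subunit protein, had 1480.0, 1725.0 and 1460.0 CPM in EW8 and 581.6, 738.5 and 709.9 in TC71 (-1.20 ± 0.08, adjusted p = 1.63e-10). For both genes the lines were fully separated.

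A few genes whose proteins every ribosome needs had low counts, below 1000 in each library. RPS10 had 56 to 155 counts a library, RPL36A 105 to 336 and RPL17 404 to 901. None of these 3 was called in either line, with log2 fold changes from -0.17 (RPL36A) to 0.18 (RPL17) in EW8 and from -0.54 (RPL36A) to -0.14 (RPS10) in TC71. Reads that matched several places or overlapped 2 genes were left out by the authors' counting. Readthrough genes that contain RPS10, RPL17 and RPL36A are annotated over their exons and held 0 counts in all 12 libraries. Annotated pseudogenes hold 95.77%, 96.03% and 97.39% of the counts of gene and pseudogenes together for RPS10, RPL17 and RPL36A. In the whole family, 78 members have 1599 annotated pseudogenes, which hold 9.81% of the combined counts. Of these pseudogenes 463 passed the low-count filter, and 14 were lower and 17 higher in EW8 and 56 lower and 17 higher in TC71. Over all genes 22.0% were lower and 21.9% higher in EW8 and 20.4% and 25.1% in TC71.

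Adding pseudogene counts to their members turned RPL23A in EW8 and ended its call in TC71. RPL23A, with 91 annotated pseudogenes, went from -0.24 ± 0.07 (adjusted p = 0.00733) to 0.35 in EW8 (adjusted p = 0.000182) and from -0.64 to -0.12 in TC71 (adjusted p = 0.139). Its pseudogene RPL23AP82 (hg38, chr22:50756948-50801309), named here after its values were seen, had 1669, 1732 and 2010 counts in EW8 with vehicle and 5814, 5321 and 4734 with doxycycline. In TC71 it had 1147, 1409 and 1117, and 3824, 3964 and 3754. Its log2 fold change was 1.51 ± 0.06 in EW8 (adjusted p = 5.02e-13) and 2.04 ± 0.06 in TC71 (adjusted p = 8.14e-15), and that of RPL23AP7 (chr2:113610502-113627090) was 1.57 ± 0.07 in EW8 and 1.33 ± 0.07 in TC71 (adjusted p = 2.02e-12 and 3.69e-11). Their annotated exons total 4250 and 2128 bp, against 463 bp in RPL23AP4. Whether their reads come from sequence shared with RPL23A was not tested.

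Other lists were read against the shares over all genes, 22.0% lower and 21.9% higher in EW8 and 20.4% and 25.1% in TC71. Of 69 tested ribosome biogenesis genes, 47 were lower and 4 higher in EW8 and 55 and 6 in TC71, with medians of -0.27 and -0.39. RIOK1 and MDN1, which mature the 40S and 60S subunits, were lowest in EW8 at -0.86 ± 0.07 (adjusted p = 1.65e-08) and -0.77 ± 0.08 (adjusted p = 2.93e-07). EFL1, the GTPase that removes the anti-association factor eIF6 from new 60S subunits, went against the list, at 1.54 ± 0.06 and 1.55 ± 0.06 (adjusted p = 4.98e-13 and 3.52e-13). Of 32 tested translation genes whose mRNAs mostly start with TOP sequences, 17 were lower and 3 higher in EW8 and 24 and 0 in TC71 (medians -0.17 and -0.30). GAS5, a non-coding TOP transcript that hosts small nucleolar RNAs, was the lowest of these in TC71 (-0.80 ± 0.06, adjusted p = 2.77e-09). PABPC1, the poly(A)-binding protein, was higher in EW8 (0.21 ± 0.04, adjusted p = 0.000339). Chaperones and import factors of ribosomal proteins gave 12 and 13 lower of 16 with none higher (medians -0.26 and -0.25), and RNA polymerase I genes 5 lower and 1 higher in EW8 and 8 and 0 in TC71 of 16.

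Of 78 mitochondrial ribosomal protein genes, 31 were lower and 5 higher in EW8 and 42 and 0 in TC71, with medians of -0.15 and -0.20. Of 13 mitochondrially encoded genes none was called in either line by edgeR. Unadjusted, 0 passed 0.05 in EW8 and 1 in TC71, as lower. Of 32 proteasome genes, 4 were lower and 9 higher in EW8 and 3 and 7 in TC71 (medians -0.01 and -0.01), with PSMD2 the highest in both lines. Of the 84 members 51 have 2000 to 5000 bp of annotated exon and 14 have less. Tested genes outside the family had medians of -0.05 and 0.00 in the first length class and 0.03 and -0.03 in the second. For the difference between the lines, the medians were -0.07 for ribosome biogenesis and 0.00 for the proteasome, against -0.25 for the members. Of 23 genes that control growth and TOP mRNAs, 7 were lower and 4 higher in EW8 and 10 and 3 in TC71. MXD1, an antagonist of MYC, was the highest in both lines (2.77 ± 0.16 and 2.73 ± 0.14, adjusted p = 5.99e-11 and 1.79e-11). Of 11 genes of the 5S RNA particle and p53, 7 were lower and 2 higher in EW8 and 8 and 1 in TC71. Their medians were -0.237 and -0.412. CDKN1A, like RPS27L a p53 target, rose in both lines, and p53 activity was not tested. Its log2 fold changes were 3.20 ± 0.19 in EW8 and 1.71 ± 0.18 in TC71 (adjusted p = 1.43e-10 and 3.42e-07). RPS27L, which is not in that list, rose by 0.90 in TC71 and was at 0.14 ± 0.10 in EW8 (adjusted p = 0.282).

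**Figure D5:**
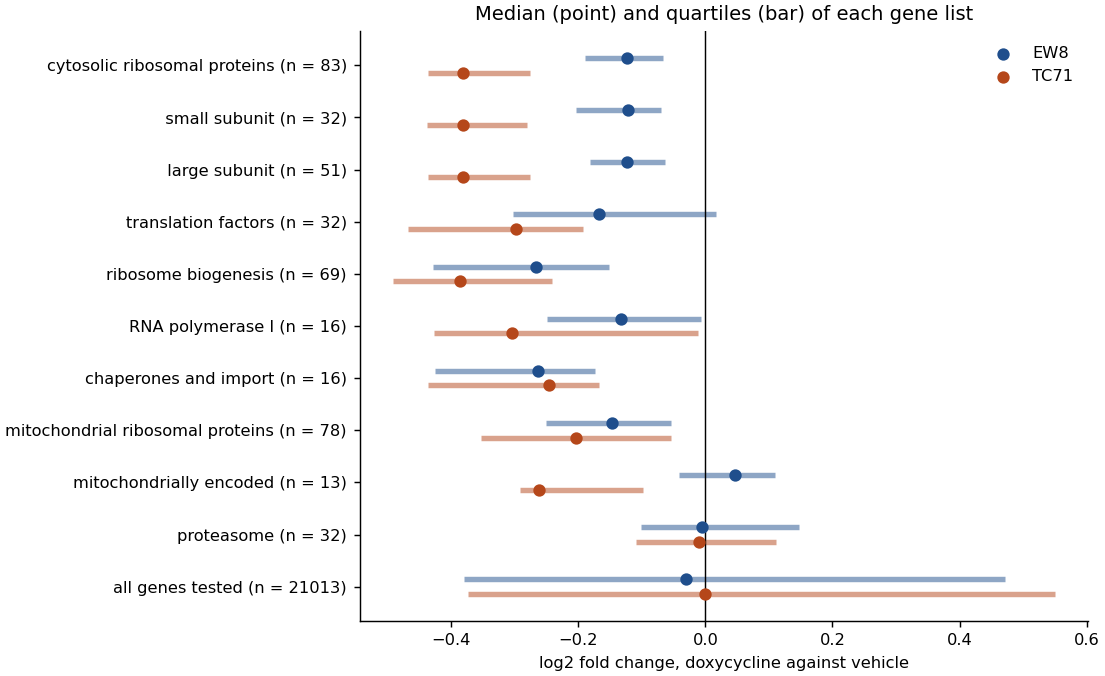
Median (point) and quartiles (bar) of the fitted log2 fold change with doxycycline over the tested genes of each list, in EW8 (blue) and TC71 (orange). The ribosomal protein medians are -0.12 and -0.38, ribosome biogenesis -0.27 and -0.39, and the proteasome -0.01 in both lines.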

How the data were processed

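Polyadenylated RNA was made into TruSeq Stranded mRNA libraries and sequenced as read pairs, and per the submitters' processing notes reads were checked with FastQC, aligned with STAR to GRCh38 (hg38) and counted with featureCounts 2.0.1 over GENCODE 29 exons. The authors deposited whole-number counts per gene, not normalized, with the exon length in bp. Per the file headers, mates were counted separately, strand was not used, and reads that matched several places or overlapped 2 genes were dropped, so genes with close copies or overlapping neighbours are undercounted. Symbols were matched by identifier for 99.2% of genes. Counts were tested with edgeR 4.0.16 (R 4.3.3): filterByExpr left 21013 genes, TMM scaling was used, and all 12 libraries entered 1 quasi-likelihood fit with 4 groups. Benjamini-Hochberg adjustment ran over all tested genes, and a call is an adjusted p under 0.05. SE is that of the log2 fold change. DESeq2 1.42.0 and limma 3.58.1 were alternatives. The members and lists were chosen with earlier results of these data known. The naming rule took the 6 lowest and 6 highest members in each line. It also took the 6 with the largest difference between the lines and the 6 with the largest vehicle difference. Copies and their parents, RPLP0, RPLP1, RPLP2, RPSA, RPS6, RPL5 and RPL11, and the member that failed the filter completed it. A few other members are named for a start sequence, a motif, a role or a departure from the family median. Of other lists, the 2 lowest and 2 highest could be named. JUN and FOS counts hold transgene and endogenous reads. Some members the rule names are not reported here by name, but all members stay in the counts and medians.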

Additional observations from a re-analysis of the deposited data

Results flagged for a closer look

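The response to doxycycline differed between the lines for 15 of the members picked by the naming rule and reported by name. This is by the test of the difference itself in the edgeR fit. Members named above outside that rule are not listed, such as RPL27A (-0.264, adjusted p = 0.00845). All values are TC71 minus EW8 on the log2 scale. The responses of RPL13A (-0.496), RPL28 (-0.449), RPLP1 (-0.415), RPL23A (-0.405), RPS16 (-0.38), RPL3 (-0.37), RPLP2 (-0.335), RPL14 (-0.332), RPS27 (-0.318), RPS3 (-0.297), RPL10 (-0.281), RPLP0 (-0.276), RPL39 (-0.25) and RPL11 (-0.247) were lower in TC71. That of RPS27L (0.769) was higher. Over all genes 7.07% had a lower and 12.2% a higher response, and the median difference of all tested members was -0.25. Adjusted p-values ran from 0.000435 for RPS27L to 0.0434 for RPLP0. Without TC71 vehicle replicate 1 all 15 kept their direction and stayed past the threshold, with the lower responses between -0.75 (RPL13A) and -0.39 (RPL11) and RPS27L at 0.73. Leaving out other single libraries ended the call for RPLP0, RPL10 and RPL39 in 5 of 12 fits each, for RPS3 in 4 and for RPS16 in 1. Of 14 other alternatives, 1 each ended the call for RPS27 and RPL39 (exon length trend removed, adjusted p = 0.1 and 0.07) and for RPLP0 (abundance trend removed, adjusted p = 0.084). With libraries scaled to an equal median of the members, only RPL13A and RPS27L of the 15 were called. The other listed differences were not distinguished from the difference shared by the family.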

How the results depend on the processing

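The direction of the median member was negative in both lines under all 27 alternatives, of which 12 left out 1 library each and 1, without the 4 low-count members, was chosen after seeing the data. The size in EW8 moved with the scaling, the count filter, the samples fitted and the pseudogenes. The median was -0.165 with upper-quartile scaling, -0.181 with library size alone, -0.077 with TMM without the members, -0.312 with an equal median of all genes, -0.057 with at least 10 counts in every library, -0.076 with each line fitted alone, -0.172 with the exon length trend removed and -0.057 with pseudogene counts added. Lower members in EW8 then numbered 52 with library size alone, 15 with TMM without the members, 70 with an equal median, 15 with at least 10 counts and 14 with pseudogenes added. Over all genes, in the same order, 5375, 3949 and 7107 of 21013, 3604 of 14647 and 3941 of 20550 were lower. With TMM without the members, at least 10 counts or pseudogenes added, members were called lower no more often than all genes. Higher members numbered 1 with upper-quartile scaling, library size alone or the length trend removed, 4 with TMM without the members, 0 with an equal median and 5 with at least 10 counts, each line alone or pseudogenes added. In TC71 the median was -0.5 with upper-quartile scaling, -0.476 with library size alone and -0.658 with an equal median, and the first and last left 1 higher member. Members with a lower response in TC71 numbered 59 with upper-quartile scaling, 58 with TMM without the members and 60 with an equal median. With at least 10 counts they numbered 62, and with pseudogenes added 61. Over all genes, in the same order, 2060, 2210 and 2109 of 21013, 2188 of 14647 and 2239 of 20550 had a lower response. The main fit had 1485 of 21013. An equal median left 10 members lower in TC71 under vehicle, beside 5772 of 21013 genes. Leaving out 1 library gave 6 to 34 lower and 1 to 5 higher members in EW8 (median -0.137 to -0.067). In TC71 it gave a median of -0.531 to -0.343 with 1 to 2 higher members. Lower responses in TC71 numbered 18 to 74, beside 1202 of 22183 and 3095 of 21905 genes in those fits. The share of counts without the 100 highest other genes was 6.162% and 5.556% in EW8 (vehicle, doxycycline) and 7.876% and 5.774% in TC71, and without mitochondrially encoded genes 4.748% and 4.939% with doxycycline.

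Some values changed sign, among them the called ones of RPLP0 and RPL23A in EW8. In EW8 they were RPL3 (-0.015 upper-quartile, -0.031 library size, -0.163 equal median), RPL28 (-0.039, -0.055 and -0.186 likewise, -0.007 with no filter, -0.018 with the length trend removed), RPLP0 (-0.018 equal median), RPL26L1 (-0.106 equal median, -0.025 length trend removed), RPS27L (-0.056 equal median), RPL26 (0.003 with at least 10 counts, 0.084 with pseudogenes) and RPL23A (0.349 with pseudogenes), and in TC71 RPL26L1 (-0.116 equal median). Leaving out 1 library gave -0.08 to 0.011 for RPL26, -0.816 to 0.242 for RPL3L and -0.045 to 0.09 for RPL28 in EW8. Apart from the scaling's own construction, the cause was not tested. Of 1236 values for single genes under other settings 1144 kept direction and side of the threshold, and of 1008 with 1 library left out 917 did.

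Equal replicate numbers did not pair the libraries (correlations of deviations from -0.028 to 0.018). With a replicate block, 33 members were lower and 3 higher in EW8 and 71 and 2 in TC71. The counts were 41 and 1 in the difference and 19 and 52 under vehicle. Over all 21013 genes they were 4600 and 4568, 4264 and 5239, 1517 and 2627, and 7002 and 5875. Genes with few counts, such as RPL3L and RPS10, could show only large changes at this depth.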
